A study of Mus musculus with 12 samples.

Results

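The regions described here are stretches of the mouse genome away from gene starts that carried a peak of histone H4 lysine 12 acetylation (H4K12ac) in control neurons and lacked one in *Tip60* cKO neurons. Overlapping peaks on the 19 autosomes were merged over the 10 deposited peak lists, and for each merged region the lists of each genotype with a peak were counted. A lost distal region had a peak in 4 or 5 more control lists than *Tip60* cKO lists and lay more than 2 kb from every gene transcription start site (TSS) of the GENCODE annotation on GRCm38. Of 256014 merged regions 218242 were distal, and 2813 of these met the rule (1.29% of all distal regions). Of the 63500 distal regions found in 4 or more lists, the number a region needs in order to qualify, they were 4.43%. The members were chosen by the presence of peaks in the 2 genotypes, so that difference at these regions is a description and was given no test.

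H4K12ac ChIP-Seq was carried out on neuronal nuclei that had been sorted by FACS from whole hippocampi, with 5 mice of each genotype, *Tip60* cKO and control. *Tip60* cKO mice carried the CaMKCreERT2 driver and *Tip60* f/f, and control mice were *Tip60* f/f without the driver. Both genotypes received tamoxifen and were taken at day 10 after the last injection, at a labelled age of 3 months, and 1 pooled input library per genotype served as background. The driver acts in postmitotic excitatory neurons of the forebrain, so other neurons in the sort keep *Tip60*. Mice 1 to 3 of each genotype were on sequencing lane 7 and mice 4 and 5 on lane 8.

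TIP60 (KAT5) is the catalytic subunit of the NuA4/TIP60 complex, an acetyltransferase of histones H4 and H2A and of other proteins. Acetylation of H4 tails is found at active promoters, along transcribed genes and at distal regulatory elements such as enhancers, where it is bound by bromodomain proteins. In hippocampal neurons distal elements carry much of the binding of activity-regulated and lineage factors, and they often lie in introns of long neuronal genes.

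The sequences of 7 of 10 highly ranked lost regions are given to show what such a region looks like and how far they differ in base composition. The 7 were picked after their motif matches were seen, to show windows with different matches and without one. The ranking covered regions with a peak in all 5 control and no *Tip60* cKO list, by the mean percent rank of fold enrichment in the control lists. Each line gives 200 bases of the plus strand of GRCm38.p6 (RefSeq), centred on the summit of the strongest control peak. Capitals mark the matches, on either strand, to the motifs searched that are named after the sequences.
Region 1, Ccdc148 intron, chr2:58830589-58830788: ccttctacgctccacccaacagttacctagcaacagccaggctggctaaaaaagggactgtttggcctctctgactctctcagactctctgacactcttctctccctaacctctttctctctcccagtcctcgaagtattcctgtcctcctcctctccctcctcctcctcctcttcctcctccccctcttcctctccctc
Region 2, 2610035D17Rik exon, chr11:113172740-113172939: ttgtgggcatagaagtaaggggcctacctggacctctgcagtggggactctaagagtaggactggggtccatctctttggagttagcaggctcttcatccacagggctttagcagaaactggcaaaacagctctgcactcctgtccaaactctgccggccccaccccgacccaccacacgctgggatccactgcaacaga
Region 4, intergenic, near Gm29676, chr13:44293954-44294153: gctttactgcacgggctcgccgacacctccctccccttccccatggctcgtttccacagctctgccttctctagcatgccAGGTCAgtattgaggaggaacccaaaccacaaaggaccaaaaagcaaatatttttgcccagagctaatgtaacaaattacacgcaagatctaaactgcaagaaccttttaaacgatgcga
Region 6, intergenic, near Prrc2b, chr2:32138444-32138643: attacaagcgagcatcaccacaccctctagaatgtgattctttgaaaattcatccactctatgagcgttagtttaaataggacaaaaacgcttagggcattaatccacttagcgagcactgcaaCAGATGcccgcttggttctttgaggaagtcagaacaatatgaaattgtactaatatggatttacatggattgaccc
Region 7, Phc2 intron, chr4:128719777-128719976: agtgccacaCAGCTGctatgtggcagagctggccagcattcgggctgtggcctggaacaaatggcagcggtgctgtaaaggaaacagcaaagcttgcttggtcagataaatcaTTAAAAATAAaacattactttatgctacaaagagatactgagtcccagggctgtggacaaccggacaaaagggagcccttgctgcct
Region 8, Clstn2 intron, chr9:97673376-97673575: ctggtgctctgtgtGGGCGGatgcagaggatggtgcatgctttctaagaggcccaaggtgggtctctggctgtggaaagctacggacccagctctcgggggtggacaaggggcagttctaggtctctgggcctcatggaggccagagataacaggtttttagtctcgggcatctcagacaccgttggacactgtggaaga
Region 10, Ccdc33 intron, chr9:58045147-58045346: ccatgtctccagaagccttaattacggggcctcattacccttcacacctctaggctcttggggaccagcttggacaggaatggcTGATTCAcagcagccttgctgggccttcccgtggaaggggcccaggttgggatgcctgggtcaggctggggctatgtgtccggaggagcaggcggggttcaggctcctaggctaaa

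In these windows the AP-1 motif TGANTCA was found in region 10 and AGGTCA, a part of the ROR site, in region 4. The NEUROD-type E-box CAGATG was in region 6, the SP and KLF motif GGGCGG in region 8, and the E-box CAGCTG with a MEF2 match in region 7. Regions 1 and 2 held no match, nor did regions 3 and 9, whose sequences are not shown, so 4 of the 10 held none. Region 5, not shown either, held the E-box CAGATG. GC content ran from 40% in region 6 to 60.0% in region 10, and between 1 and 7 CpGs were present, over all 10 regions. Region 1 was repeat sequence over 60.0% of its window, while regions 2 and 10 held no masked repeat. A match is a run of letters and not a measured binding site.

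The libraries differed in depth and in their number of peaks. Between 22864189 and 37077725 tags entered peak calling in *Tip60* cKO and between 27418740 and 37923809 in control lists. Autosomal peaks numbered 64012 to 134930 in *Tip60* cKO and 93136 to 135680 in controls, and *Tip60* cKO mouse 5 was lowest in both measures. Where a list held no peak, the signal had not passed that list's threshold, and its true level is not known. Fewer acetylated nuclei and less acetylation per nucleus cannot be told apart in such pooled nuclei. Among TSS windows of marker genes, all 8 neuronal markers had a peak in all 10 lists, as did *Mbp* among the oligodendrocyte markers. No list had a peak at 2 of 5 interneuron markers (*Gad1* and *Sst*), 3 of 5 astrocyte markers (*Aqp4*, *Aldh1l1* and *Gjb6*), 3 of 5 oligodendrocyte markers (*Mog*, *Mag* and *Olig2*), 4 of 5 microglial markers (*P2ry12* apart) and 2 of 4 endothelial markers (*Pecam1* and *Tek*). Of the rest, *Gfap* had a peak in 5 control and 4 *Tip60* cKO lists, *Slc1a3* in 2 and 1, *P2ry12* in 4 and 1, *Pvalb* in 3 and 0 and *Sox10* in 2 and 2. *Slc32a1* had none in control and 2 in *Tip60* cKO lists, and *Gad2*, *Cldn5* and *Flt1* had none and 1. The mean rank over the 8 neuronal markers ran from 64.8 to 69.5 in control and from 40.5 to 68.9 in *Tip60* cKO lists. Over the 5 astrocyte markers it ran from 0.268 to 13.7 in control and from 0 to 3.61 in *Tip60* cKO lists. For the 5 microglial markers it ran from 0 to 7.27 and from 0 to 3.21, and for the 5 interneuron markers from 0 to 4.55 and from 0 to 1.66. The 5 oligodendrocyte markers ran from 17.3 to 20.1 and from 16.7 to 24.6. The 4 endothelial markers were at 0 in all control lists and ran from 0 to 7.05 in *Tip60* cKO lists. The part of other cells in the lost regions was not tested.

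The peaks of the control mice covered most of the lost regions, as the rule demands. Control mice 1 to 5 had a peak in 2557, 2625, 2513, 2291 and 2671 of the 2813 regions. *Tip60* cKO mice 1 to 5 had one in 305, 193, 203, 184 and 56. The lowest values of both genotypes fell in their shallowest libraries, control mouse 4 and *Tip60* cKO mouse 5. The pattern of 4 control and 0 *Tip60* cKO lists made up 1408 regions (50.1%), that of 5 and 1 made up 941 (33.5%), and 464 regions (16.5%) had 5 control peaks and no *Tip60* cKO peak.

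Loss was more frequent than gain at this threshold. The mirrored rule found 614 gained distal regions (0.281% of all distal regions and 0.967% of those found in 4 or more lists), so 82.1% of the distal regions past either threshold were lost. Within 2 kb of a TSS 433 regions were lost (1.15% of all such regions and 2.07% of 20885 found in 4 or more lists) and 103 gained (0.493%). Just outside the threshold 7794 distal regions had 3 more control than *Tip60* cKO lists, and just inside it 2349 had 4 more. Their median fold enrichments in control peaks were close, 3.42 at a difference of 3, 3.47 at 4 and 3.52 at 5. The share of losses differed between settings. With the 64012 strongest peaks of every list 1088 distal regions were lost and 596 gained (64.6% lost). With a minimum height of 0.45 fragments per 1000000 tags, an alternative chosen after seeing the data, 2144 were lost and 137 gained (94.0% lost). When a mouse was left out the rule became a difference of at least 80 percentage points in the share of lists, so the genotype with 4 lists needed a peak in all 4 or in none, and the count moves with both changes. Leaving out *Tip60* cKO mouse 5 gave 2042 lost and 840 gained regions. Leaving out *Tip60* cKO mouse 1, 2, 3 or 4 gave 2931, 2483, 2618 and 2401 lost regions, and 258, 352, 303 and 399 gained ones, each more than 1.5 times below 614. Leaving out control mouse 2 or control mouse 5 gave 1875 and 1790 lost regions, the only single mice for which the lost count moved by more than 1.5 times.

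**Figure D1:**
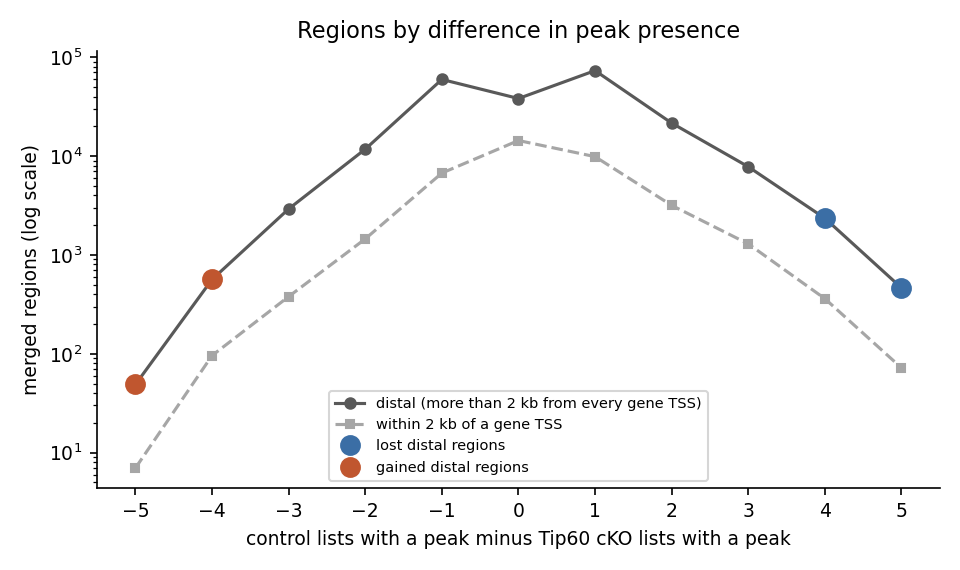
Merged autosomal regions (y axis, log scale) by the number of control lists with a peak minus the number of *Tip60* cKO lists with a peak (x axis), for distal regions and for regions within 2 kb of a TSS. The lost distal regions at differences of 4 (2349) and 5 (464) outnumbered the gained ones at -4 (565) and -5 (49).

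Whether regions picked in one set of mice also differed in mice that had no part in the choice was examined across lanes. In lane 7, 2191 distal regions had a peak in 3 of 3 control and 0 of 3 *Tip60* cKO lists. In lane 8 these had a peak in 42.5% (control mouse 4), 66.0% (control mouse 5), 22.5% (*Tip60* cKO mouse 4) and 9.31% (*Tip60* cKO mouse 5) of cases. Both control mice lay above both *Tip60* cKO mice, with a mean difference of -38.4 percentage points (two-sided exact permutation test p = 0.333, the smallest that 2 against 2 mice allow). In the other direction 8960 regions had a peak in 2 of 2 control and 0 of 2 *Tip60* cKO lists of lane 8. In lane 7 the control mice had 60.0, 64.3 and 56.4% of them and the *Tip60* cKO mice 47.0, 36.5 and 39.9%. Again the genotypes did not overlap, at a mean difference of -19.1 percentage points (two-sided exact permutation test p = 0.1, the smallest that 3 against 3 mice allow). Neither test can pass 0.05.

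The same values were taken at regions chosen without regard to *Tip60* cKO peaks. All 33574 distal regions with a peak in 3 of 3 control lists of lane 7 had a peak in 82.7 ± 10.7% in the lane 8 controls and in 63.1 ± 14.3% in lane 8 *Tip60* cKO mice (SD, n = 2). All 35577 with a peak in both controls of lane 8 stood at 82.5 ± 1.74% and 74.4 ± 3.34% in lane 7 (SD, n = 3). Since the lists differ in size, the share at the chosen regions was divided in each mouse by its share over all distal regions. This ratio was 1.83 and 1.72 in the lane 8 controls, and 0.865 and 0.624 in the lane 8 *Tip60* cKO mice. In lane 7 it was 1.72, 1.71 and 1.81 in controls and 1.25, 1.26 and 1.27 in *Tip60* cKO mice. The genotypes did not overlap in this ratio. The two-sided exact permutation tests again gave p = 0.333 and p = 0.1, their smallest values.

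The mirrored choice was read in the same way. The 1448 regions chosen as gained in lane 7 were found in 15.3 and 34.9% by the lane 8 controls and in 36.9 and 16.7% by the lane 8 *Tip60* cKO mice, which overlapped (difference 1.69 percentage points, two-sided exact permutation test p = 0.667). The 1633 regions chosen as gained in lane 8 were found in 34.2, 38.0 and 33.1% by the lane 7 controls and in 55.5, 42.8 and 47.0% by the *Tip60* cKO mice, without overlap (difference 13.3 percentage points, two-sided exact permutation test p = 0.1). Both lanes were called against the same 2 inputs, so the lanes are not independent in this respect.

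**Figure D2:**
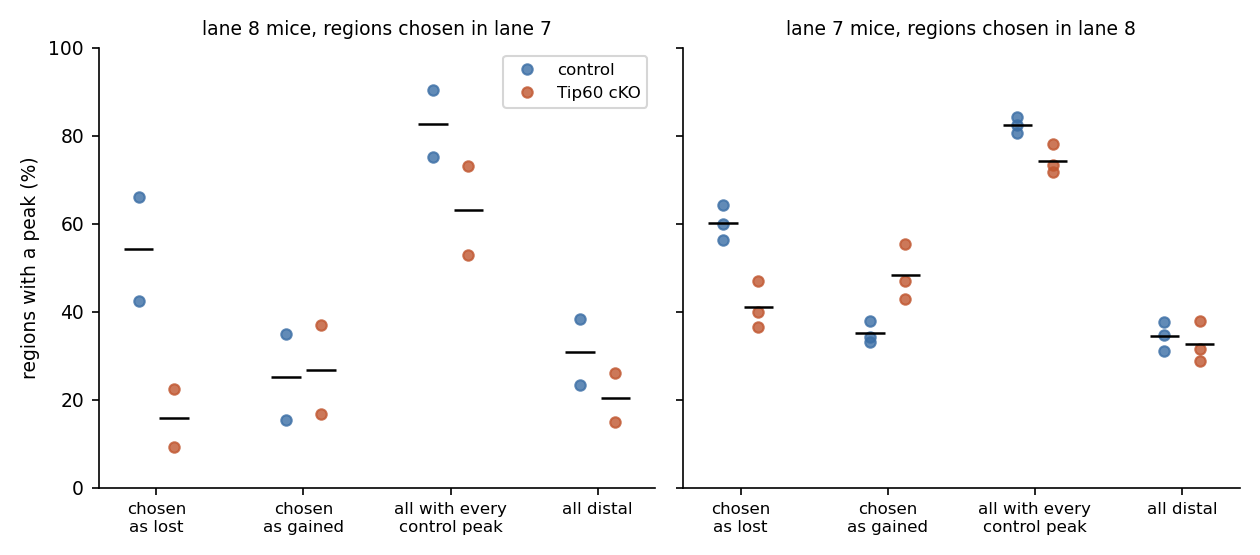
Percent of chosen distal regions with a peak (y axis) in the mice of the lane not used for the choice, 1 point per mouse, with lines at the mean of each genotype. At regions chosen as lost, the control mice (42.5 and 66.0% in lane 8, 56.4 to 64.3% in lane 7) lie above the *Tip60* cKO mice (9.31 and 22.5%, 36.5 to 47.0%).

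The lost regions carried low and short peaks in the control mice. The median height at them was 16, 17, 16, 14 and 18 fragments in control mice 1 to 5 (16.2 ± 1.48, SD, n = 5), where the lowest listed heights were 9 to 11. Constant distal regions, the 12738 with a peak in all 10 lists, stood at 23.6 ± 2.97 fragments. The ranges did not overlap, with 14 to 18 fragments at lost and 19 to 27 at constant regions. As a closer comparison, chosen after the data were seen, balanced distal regions were taken as the 24147 with a peak in 4 to 6 lists and genotypes differing by at most 2 lists. Their median height equalled that of the lost regions in each control mouse (16.2 ± 1.48 fragments). The presence of a peak in several lists entered the definition of all these sets, so their levels are a description.

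Fold enrichment, the height over the local background expected from the input, gave a slightly different order. Its median was 3.39, 3.43, 3.53, 3.57 and 3.46 at the lost regions in control mice 1 to 5, against 3.25 to 3.43 at balanced, 3.05 to 3.23 at gained and 4.44 to 4.73 at constant regions. Ranked within each list, the lost regions lay at percentile 44.5 ± 4.26 by fold enrichment, against 36.1 ± 2.89 for balanced and 78.2 ± 4.60 for constant regions. Ranked by height they lay at 37.2 ± 4.28, the same as the balanced regions. The median length under control peaks was 336 ± 35.8 bp at lost, 299 ± 26.2 bp at balanced and 1026 ± 147 bp at constant regions (SD, n = 5 throughout).

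**Figure D3:**
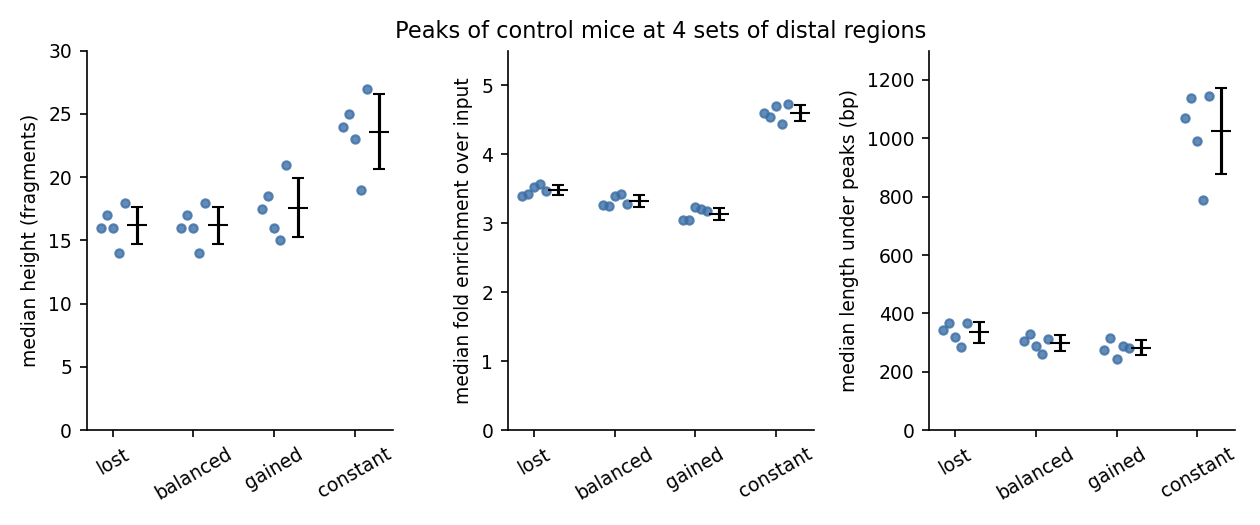
Median height, fold enrichment over input and length under peaks (y axes) in each of the 5 control mice, for lost, balanced, gained and constant distal regions, with mean and SD beside the points. Lost regions share the height of balanced regions (16.2 fragments) and stand below constant regions (23.6 fragments) in every measure.

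The local background moved with the class of region. It was recovered from height and fold enrichment and is given relative to the genome-wide level of the list, at peaks alone. Among distal regions with a peak in 4 to 6 lists, its mean at control peaks fell from 1.43 ± 0.0814 at gained regions to 1.21 ± 0.00819 at regions with equal numbers of lists and to 1.13 ± 0.00424 at lost regions. At *Tip60* cKO peaks it ran the other way, from 1.08 ± 0.0078 to 1.11 ± 0.00479 and 1.22 ± 0.0289 (SD, n = 5 mice). At lost regions the *Tip60* cKO value rests on the few peaks that remained. The control value at the 614 gained regions, like their fold enrichment above, rests on 9 to 40 peaks per mouse. In peaks within 10 kb of the lost regions it was 1.18 ± 0.0094 in control and 1.09 ± 0.0153 in *Tip60* cKO lists, and around balanced regions 1.19 ± 0.00901 and 1.09 ± 0.0153. As 1 input served all mice of a genotype, genotype and input cannot be told apart in these values, and the part of the input in the losses was not tested.

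Of the 10 highest ranked lost regions with 5 control and no *Tip60* cKO peaks, most lay in introns. Region 1 (chr2:58830380-58830812) lay in an intron of *Ccdc148*, 28.6 kb from the nearest TSS and 243 kb from the nearest region with a peak in all 10 lists. Its fold enrichments were 4.45, 6.10, 5.22, 4.59 and 4.96 in control mice 1 to 5, with heights of 20, 29, 22, 17 and 24 fragments. Control mouse 2 was highest and all 5 lay above the median of the lost regions. Region 2 (chr11:113172648-113173022) lay in an exon of the long noncoding RNA 2610035D17Rik, and the nearest protein-coding TSS, that of the transcription factor gene *Sox9*, was 390 kb away. Its fold enrichments were 4.41, 3.86, 4.63, 6.41 and 7.47, highest in control mouse 5 with 38 fragments. The lane 8 mice were above the lane 7 mice here.

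Region 3 (chr11:107364013-107364726) lay in an intron of *Pitpnc1*, a phosphatidylinositol transfer protein, with fold enrichments of 4.45, 5.08, 6.81, 4.08 and 4.96. Region 4 (chr13:44293714-44294598) was intergenic, 13.3 kb from the noncoding gene Gm29676 and 435 kb from *Jarid2*, which encodes a Polycomb repressive complex 2 cofactor. It had fold enrichments of 4.02, 4.88, 4.08, 6.38 and 4.79. Region 6 (chr2:32138360-32139184) was intergenic too, 11.9 kb from *Prrc2b* and 0.393 kb from a constant distal region, and its control values were the closest together but for region 7 (4.61 ± 0.354, SD, n = 5).

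Region 7 (chr4:128719333-128720250) lay in *Phc2*, a subunit of Polycomb repressive complex 1, with 4.66, 4.87, 4.14, 4.43 and 4.93. Region 8 (chr9:97673241-97674036) lay in *Clstn2*, the synaptic membrane protein calsyntenin 2, with 3.59, 4.57, 4.46, 5.03 and 5.0. Region 9 (chr13:59492235-59492744) lay in *Agtpbp1*, an enzyme that removes glutamate residues from tubulin and whose loss causes Purkinje cell degeneration in mice. It had fold enrichments of 4.61, 3.62, 4.96, 4.07 and 5.94. Regions 5 (chr10:21605015-21606061, in 1700020N01Rik) and 10 (chr9:58044412-58045535, in *Ccdc33*) stood at 4.87 ± 0.909 and 4.78 ± 1.28. All control mice had a peak at these regions by choice, with heights of 15 to 38 fragments over the 10 regions. Lost regions with a peak in 1 *Tip60* cKO list did not enter this ranking, and some of them ranked as high.

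**Figure D4:**
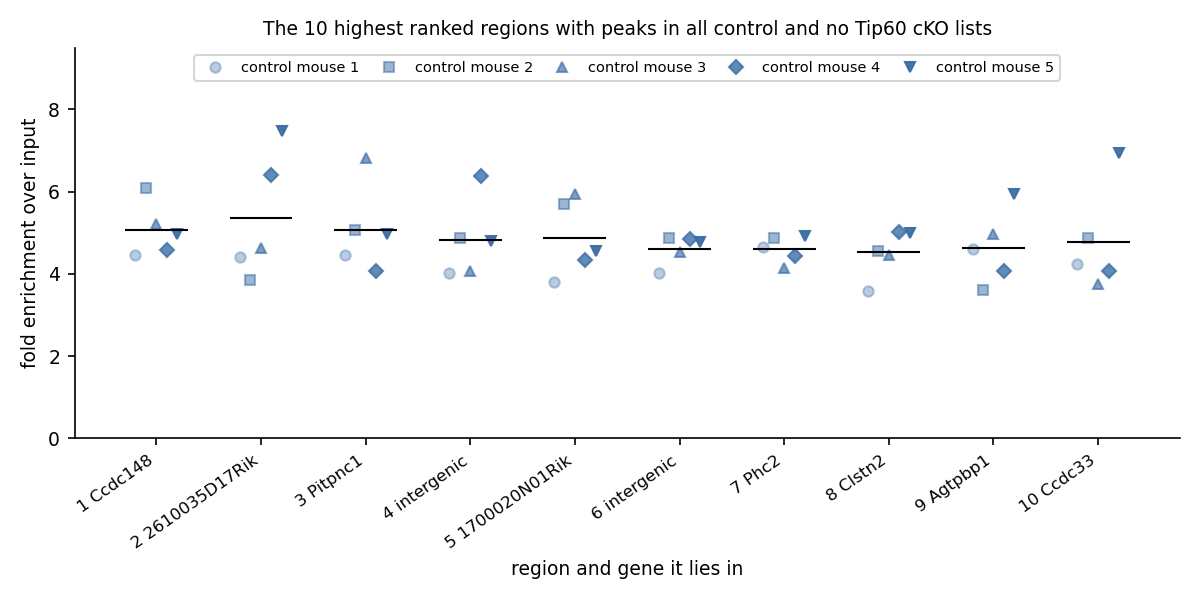
Fold enrichment over input (y axis) in the 5 control mice at the 10 highest ranked distal regions with a peak in all control and no *Tip60* cKO list (x axis, with the gene a region lies in, or intergenic for regions 4 and 6), with lines at the mean. Values run from 3.59 in *Clstn2* to 7.47 in 2610035D17Rik.

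Of the 2813 lost regions, 773 were intergenic (27.5%), 1606 intronic (57.1%) and 434 overlapped an exon (15.4%). Intergenic shares were 21.2% of balanced, 17.4% of gained and 25.2% of constant distal regions, 23.3% of all distal regions found in 4 or more lists and 21.8% of all distal regions. Along the difference between genotypes, among regions with a peak in 4 to 6 lists, the intergenic share was 13.8% at -3 (95% Wilson interval 11.6 to 16.5), 21% at 0 (20.1 to 22.0), 24.1% at 2 (23.1 to 25.1), 27.7% at 3 (25.9 to 29.6) and 27.5% at 4 or 5 (25.9 to 29.2). These intervals cover counting error alone, and neighbouring regions share genes and libraries. Against protein-coding genes alone 31.5% of the lost, 24.7% of the balanced, 29.4% of the constant and 27.1% of all distal regions found in 4 or more lists were intergenic. The local background at control peaks, given above, fell over the same range of differences.

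**Figure D5:**
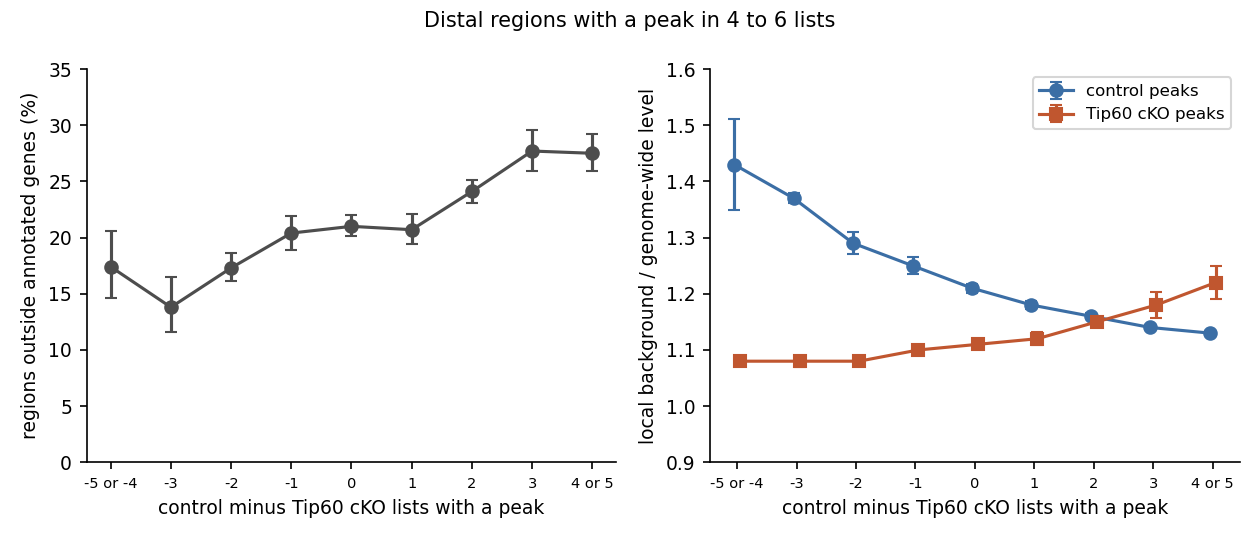
Left, percent of distal regions outside annotated genes with 95% Wilson intervals. Right, mean local background relative to the genome-wide level at control and *Tip60* cKO peaks with SD over 5 mice. The x axes give control minus *Tip60* cKO lists with a peak, for regions with a peak in 4 to 6 lists. The intergenic share is 17.4% at -5 or -4 and 27.5% at 4 or 5, while the background at control peaks runs from 1.43 to 1.13.

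Distance to gene starts did not set them apart to the same degree. The median distance to the nearest TSS was 23.1 kb for lost, 21.9 kb for balanced and 18.8 kb for constant regions, and 26.4, 25.9 and 30.3% lay within 10 kb. Beyond 100 kb lay 9.42% of the lost and 8.59% of the balanced regions. Lost regions were farther from regions with a peak in all 10 lists, whether distal or within 2 kb of a TSS. The median gap was 13.9 kb for lost, 11.1 kb for balanced and 9.23 kb for gained regions. Merged lost regions had a median width of 645 bp (248 to 2131 bp). Between chromosomes the share lost ran from 3.9% of distal regions found in 4 or more lists on chromosome 11 to 5.35% on chromosome 3.

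Within 10 kb of another lost region lay 13.4% of them, compared with 10% of balanced, 8.47% of gained and 11.3% of constant regions that had a lost region so near. In all 1056 lost regions (37.5%) fell into 455 intervals with less than 50 kb from one to the next. A lost region lay within 50 kb of 31.3% of balanced, 34.1% of constant and 33% of all distal regions found in 4 or more lists. The interval with the most held 6 lost regions over 121 kb of *Dscaml1* (chr9:45596973-45718230), a homophilic cell adhesion molecule, among 48 distal regions found in 4 or more lists, of which 19 were constant and none gained. The longest intervals with 5 lost regions were on chr15:59905615-59990848 next to 4933412E24Rik, where only 6 distal regions reached 4 lists, and on chr6:114931526-115009507 at *Tamm41* and *Vgll4*, a cofactor of TEAD transcription factors, where 13 did.

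The base composition of lost regions resembled that of balanced ones. Windows of 200 bp were centred on the strongest control summit at lost regions. At balanced, constant and all distal regions they were centred on the strongest summit of all 10 lists. The GC content was 51.0 ± 5.45% in lost (SD over 2813 regions), 51.9 ± 5.55% in balanced and 56.2 ± 6.93% in constant distal regions. CpG-rich windows, with more than 50% GC and more than 0.6 of the CpGs that the base composition predicts, made up 1.46% of lost, 1.69% of balanced and 9.70% of constant regions. Masked repeats covered 11.9% of the bases at lost and 12.3% at balanced regions. The lost regions within 2 kb of a TSS had more CpG-rich windows, 15.7%.

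Motifs were searched on both strands of these 200 bp windows, centred as above for each set. Most were present in similar shares of lost, balanced and all distal regions. The AP-1 motif TGANTCA, bound by FOS and JUN proteins, was present in 159 lost regions (5.65%), 5.79% of balanced regions and 5.57% of all distal regions found in 4 or more lists. The NEUROD-type E-box CAGATG was in 18.6, 18.9 and 18.8% of them and the E-box CAGCTG in 16.4, 17.1 and 18.1%. A CRE (TGACGTCA), the site of CREB, was in 0.178, 0.141 and 0.172%, and the shorter CRE core TGACG, which any CRE contains, in 7.68, 8.2 and 8.63%. MEF2 matches were in 1.39, 1.07 and 0.967%. The MYC E-box CACGTG stood at 3.41, 3.43 and 3.49%, and the E2F motif TTTNNCGC at 1.49, 1.30 and 1.37%. AGGTCA, a part of the ROR site, was in 12.9, 13.7 and 13.7%, and GTTGCCA, a part of the RFX site, in 2.67, 2.60 and 2.71%. NRF1 (GCATGCGC) was in 0.249, 0.389 and 0.402%, and CTCF matches in 0.355, 0.576 and 0.546%. NRF1, MEF2 and CTCF matches were found in only 7, 39 and 10 lost regions, and in windows of 400 bp the order for CTCF turned, with 1.56% of lost and 1.38% of balanced regions. An NFI match was in none of the lost regions and in 0.0207% of the balanced ones. GC-rich motifs were less frequent at lost than at constant distal regions. SP and KLF (GGGCGG) were in 3.91% of lost, 4.70% of balanced and 11.9% of constant regions, and EGR (GCGNGGGCG) in 0.107, 0.195 and 1.25%.

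Each lost region was assigned to the protein-coding gene it overlapped (68.5% of them) or, if it overlapped none, to the nearest protein-coding TSS, which gave 1811 genes. Most of them (1273) had 1 lost region and 59 had 5 or more. *Prkca*, protein kinase C alpha, had 10 of its 75 distal regions found in 4 or more lists (13.3%), and 5 of these lay within 35.1 kb. *Fstl4*, a secreted follistatin-like protein, had 8 of 41 (19.5%) and *Glis3*, a zinc finger transcription factor, 8 of 55 (14.5%). *Auts2*, a neurodevelopmental gene tied to Polycomb repressive complex 1, had 8 of 76 (10.5%) and *Tbc1d22a* 8 of 77 (10.4%).

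The genes named next had shares from 4.07 to 8.70%, against 4.43% of all distal regions found in 4 or more lists. Among all genes with 5 or more lost regions the shares ran from 3.27% (*Rbfox3*, 5 of 153) to 54.5% (4933412E24Rik, 6 of 11). *Rbfox1*, a neuronal splicing regulator, had 10 of 164 (6.10%), *Vrk1*, a chromatin kinase, 10 of 115 (8.70%) with 3 inside the gene, and *Celf2*, an RNA-binding protein, 9 of 221 (4.07%). *Erc2*, a scaffold of the presynaptic active zone, had 9 of 118 (7.63%), *Dlg2*, the postsynaptic scaffold PSD-93, 8 of 111 (7.21%) and *Dscaml1* 8 of 120 (6.67%). Genes were picked for the number of lost regions, so their shares are given as a description.

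Lists of neuronal genes, taken from general knowledge, were read against the same 4.43%. Gained regions made up 0% to 2.7% of the distal regions of a list, against 0.967% of all, and their share was 1.79% for synaptic adhesion, 1.75% for GABA receptors, 2.03% for potassium channels, 1.80% for calcium and sodium channels and 0.429% for transcription factors. Synaptic adhesion genes had 33 of 615 distal regions lost (5.37%). Among them were *Cdh13* (5 of 34), an atypical cadherin, *Cadm1* (4 of 57), an immunoglobulin adhesion molecule, and the ephrin receptor *Epha7* (3 of 11). Axon guidance genes had 33 of 612 (5.39%). The semaphorin and VEGF co-receptor *Nrp1* had 7 of 64, none of them inside the gene, the secreted ligand *Slit3* 6 of 175 and the semaphorin receptor *Plxna2* 4 of 31. Transcription factors of hippocampal excitatory neurons had 37 of 700 (5.29%). *Zbtb20*, needed for CA1 identity, had 6 of 73, *Prox1*, the determinant of dentate granule cells, 5 of 27, and *Nfib* and *Nfia*, of the nuclear factor I family, 5 of 51 and 4 of 29.

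Receptors and channels were at or under the share of all distal regions. Glutamate receptor genes had 22 of 664 (3.31%), with *Grik4*, a kainate receptor subunit, at 6 of 111 and *Gria1*, an AMPA receptor subunit, at 4 of 128. GABA receptor genes had 9 of 228 (3.95%), among them 2 each in *Gabrb1* and *Gabrb2*. Potassium channel genes had 24 of 541 (4.44%), led by *Kcnma1*, the BK channel (4 of 100), and *Kcnq3*, an M-current channel (4 of 42). Calcium and sodium channel genes had 22 of 722 (3.05%), of which 6 of 68 were in *Cacna1e*, the R-type calcium channel.

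Synaptic machinery was close to the overall share. Presynaptic release genes had 22 of 497 (4.43%), with *Ppfia2*, a liprin of the active zone, at 4 of 25 and *Syt1*, the calcium sensor of release, at 4 of 106. Postsynaptic scaffold and kinase genes had 44 of 1061 (4.15%), which besides *Prkca* and *Dlg2* included *Dlgap1* (4 of 146) and *Dlgap2* (4 of 92), partners of PSD-95. Immediate early genes had 3 of 99 (3.03%), 2 of 3 in *Fosl2*, a FOS-family factor, and 1 of 15 in the nuclear receptor *Nr4a3*. MAPK feedback genes had 6 of 212 (2.83%), with 2 of 22 in the phosphatase gene *Dusp4*. DNA replication genes had 1 of 37 (2.70%), in *Rpa1*.

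Glial and vascular marker genes had 6 of 69 (8.70%). These were *Mbp* (2 of 40), a myelin protein, *Pecam1* (2 of 6), an endothelial adhesion molecule, *Aldh1l1* (1 of 2), an astrocyte enzyme, and *P2ry12* (1 of 3), a microglial purinergic receptor. In the TSS windows *P2ry12* had a peak in 4 control lists and 1 *Tip60* cKO list, *Aldh1l1* and *Pecam1* had none in any list, and *Mbp* had one in all 10.

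Of the 1811 genes with lost distal regions 1270 had a TSS peak in all 10 lists (70.1%). This share was 67.7% for genes with balanced, 66.3% with constant and 79.1% with gained distal regions, and 46.2% for all protein-coding genes. At 7 of the 1811 (0.387%) the TSS itself met the rule for loss, as it did at 0.356% of all 20780 protein-coding genes. Their mean TSS rank by fold enrichment, with 0 where no peak was present, was 51.0 ± 1.46 in control and 47.4 ± 3.02 in *Tip60* cKO mice (SD, n = 5). The ranges of 48.8 to 52.4 and 42.3 to 50.5 overlapped. Of the 1627 with a TSS peak in some list 64.1% were lower in *Tip60* cKO (median difference fell by 3.30 rank points), against 65.3% of genes with gained, 61.7% with balanced regions and 58.2% of all protein-coding genes. The comparison uses the same libraries as the rule and was not tested.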

How the data were processed

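H4K12ac ChIP-Seq of sorted hippocampal neuronal nuclei was processed by the authors with STAR (mm10), samtools rmdup and MACS 2.1.0.20140616 (q < 0.1), each library against the pooled input of its genotype. Each deposited list gives positions, the pileup (a coverage signal in fragments at the summit), the fold enrichment (a ratio to local background, with 1 added to both) and −log10 p and q values. Peaks and not reads were used, so precision is the spread between mice.

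Autosomal peaks of all 10 lists were merged where they overlapped. TSSs, genes and exons came from GENCODE M21. Local background was recovered as (pileup + 1) / fold enrichment − 1. Tests are two-sided exact permutations over mice. Nothing shows that same-numbered mice are paired. The lane of each library was read from its deposited file name. Labels and the study's methods differ in sex and strain, which entered no comparison. The code ran in Python 3.11.15 with numpy 2.4.6, pandas 2.3.3 and scipy 1.17.1. It was checked on simulated lists with losses and gains built in, which shows nothing on how the rule performs on the real lists. Named regions were the 10 highest ranked with 5 control and 0 *Tip60* cKO peaks, up to 12 genes with the most lost regions, up to 4 genes per list and the 3 intervals with the most lost regions, the longer first among ties, and some genes that this rule names are not reported here. The members, gene lists and comparisons were chosen with earlier results of these data known. Alternatives were a stricter q, equal list sizes, a minimum height, another TSS distance, all transcripts, ranking by pileup, 400 bp windows, protein-coding genes alone, each mouse left out and the replicate number as a block.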

Additional observations from a re-analysis of the deposited data

Results flagged for a closer look

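The median height of the remaining peaks at lost distal regions was 12.5 fragments in *Tip60* cKO mouse 5, below the 16 to 17 fragments of the other 4 *Tip60* cKO mice, a gap that passed Dixon's 95% limit for 5 samples. This library had the fewest tags and the fewest remaining peaks at lost regions (56). The same mouse was lowest at balanced (12 against 15 to 16 fragments) and constant regions (15 against 21 to 23). Per 1000000 tags its height at lost regions was the highest of the *Tip60* cKO mice (0.547 against 0.433 to 0.511), as was its median fold enrichment of 3.61. Chance flags about 1 in 20 groups. More than 20 groups were checked, and this flag was the only one.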

How the results depend on the processing

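The number of lost distal regions was 2813. It was 1088 with the same number of peaks per list, where the cause was not tested, and 1790 to 2931 with each mouse left out, of which 1547 to 2177 were shared with the 2813. Peaks with q below 0.01 gave 2770, a distance of more than 5 kb 2475, the 5' ends of all transcripts 2560 and the minimum height 2144. The difference at regions chosen in lane 7 and read in lane 8 was -38.4 percentage points and lay between -27.2 and -38.8 under these 5 settings, and between -26.6 and -50.1 with a mouse left out. The difference at regions chosen in lane 8 and read in lane 7 was -19.1 and lay between -17.6 and -24.9, and between -16.8 and -22.1 with a mouse left out. With the replicate number as a block the differences were the same, -38.4 (exact sign-flip test p = 0.5) and -19.1 (p = 0.25), the smallest p that 2 and 3 pairs allow. No test here can pass 0.05, so none of these p-values speaks for stability. Ranking by height in place of fold enrichment moved the control percentile of lost regions from 44.5 to 37.2. Height is not divided by the local background, and the part of the background in this shift was not tested. GC content was 51.0% in windows of 200 bp and 49.3% in windows of 400 bp. The weakest listed control peaks held 9 to 11 fragments, and the part of depth in which regions count as lost was not tested.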
